A study of Mus musculus with 4 samples.

Results

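The autonomic nerves act on the heart through a small set of receptors, and 7 genes of that system are described here in hearts of Carm1 mutant and wild-type mice: the adrenergic receptor genes Adrb1, Adrb3, Adra1a and Adra1b, the muscarinic receptor gene Chrm2, the receptor kinase gene Grk5 and Maoa, whose product breaks down noradrenaline. Every peak of the deposited table that overlapped 1 of these genes or lay within 30 kb of either end was taken, which gave 98 of 87948 peaks, with no peak shared between the 7 genes. The peaks were taken by position, but the genes were selected on the CPM values of the same 4 libraries, mutant against wild type. Their differences between the genotypes are therefore given as a description, and the adjusted p-values below only say where a peak stood in the fit over all peaks. The data are ATAC-seq libraries of heart tissue at postnatal day 14, in which a transposase inserts adapters into open chromatin, from 2 Carm1 mutant and 2 wild-type replicates. Carm1 encodes an arginine methyltransferase that acts on histones and coactivators. The labels gave neither the altered part of Carm1, nor a driver or strain, nor a cell type, nor whether animals were pooled.

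Noradrenaline from sympathetic nerves binds beta-adrenergic receptors, which act through the stimulatory G protein and cyclic AMP to raise the rate and force of the heartbeat, and alpha-1 receptors, which act through Gq and phospholipase C. Acetylcholine from the vagus nerve binds the M2 muscarinic receptor, which acts through the inhibitory G protein and slows the heart. Receptor kinases of the GRK family phosphorylate receptors that have bound their ligand and so end the signal, and monoamine oxidases of the outer mitochondrial membrane oxidise the catecholamines that cells take up.

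Total counts in peaks were 16740589 and 15945420 in mutant replicates 1 and 2, and 17508230 and 19091969 in wild-type replicates 1 and 2, and the counts of single peaks described here lay between 10 and 1653 per library. CPM values are counts scaled to a common library total and by TMM (a normalization for library composition), and a difference was called where edgeR's quasi-likelihood test over all 87948 peaks gave a Benjamini-Hochberg adjusted p under 0.05. All 98 peaks passed the filter on low counts. Peaks within 1 kb of an end of a cardiomyocyte marker gene were followed as well. At 7 of 7 listed genes, 16 such peaks summed to 1127 and 991 CPM in mutant replicates 1 and 2, and to 960 and 909 CPM in wild-type replicates 1 and 2. The libraries also differed in signal tied to sex. The peak at Xist, the RNA that silences a female X chromosome, had 0.597 and 12.6 CPM without TMM in mutant replicates 1 and 2, and 0.685 and 4.82 in wild-type replicates 1 and 2. On the same scale, peaks on chromosome Y summed to 229 and 142 CPM in the mutant replicates, and to 133 and 75.1 CPM in the wild-type replicates. Replicate 2 of each genotype thus carried more Xist and less Y signal than replicate 1. The Y sums were also higher in both mutant libraries than in both wild-type libraries, so the Y share of the counts went partly with genotype. A fit with the Y share as a covariate therefore cannot fully separate sex from genotype. The part of sex in the results was not tested beyond that fit.

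Promoter sequences from RefSeq (GRCm38.p6) were at hand for 5 of the 7 genes, Adrb1, Adra1b, Chrm2, Grk5 and Maoa. Of these, 4 sequences are shown, since they mark where open chromatin did and did not meet an annotated start site. Each is the 250 bases before the start site, written 5′ to 3′ on the gene's strand. Capitals mark matches on either strand, so that a GC box can read CCGCCC. The motifs searched were the GC box, spelled GGGCGG. They also included the CCAAT box, spelled as its name, and the core of the cAMP response element, spelled TGACG.

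Adrb1, chr19:56721867-56722116, plus strand: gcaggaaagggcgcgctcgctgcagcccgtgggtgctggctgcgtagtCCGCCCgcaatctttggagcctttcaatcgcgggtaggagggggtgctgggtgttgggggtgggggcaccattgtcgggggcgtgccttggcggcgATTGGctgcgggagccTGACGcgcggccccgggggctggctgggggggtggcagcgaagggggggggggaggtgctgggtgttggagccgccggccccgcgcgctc

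Adra1b start with a peak, chr11:43836490-43836739, minus strand: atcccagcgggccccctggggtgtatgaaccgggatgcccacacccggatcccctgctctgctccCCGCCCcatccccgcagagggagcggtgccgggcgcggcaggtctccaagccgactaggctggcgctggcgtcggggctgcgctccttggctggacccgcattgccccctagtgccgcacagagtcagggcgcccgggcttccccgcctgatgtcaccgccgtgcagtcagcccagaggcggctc

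Adra1b start without a peak, chr11:43901238-43901487, minus strand: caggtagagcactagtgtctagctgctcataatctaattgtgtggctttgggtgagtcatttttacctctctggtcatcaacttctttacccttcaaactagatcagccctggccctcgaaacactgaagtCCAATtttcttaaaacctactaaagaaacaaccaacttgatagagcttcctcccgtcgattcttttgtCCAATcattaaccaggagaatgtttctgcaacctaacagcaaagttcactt

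Chrm2, chr6:36387834-36388083, plus strand: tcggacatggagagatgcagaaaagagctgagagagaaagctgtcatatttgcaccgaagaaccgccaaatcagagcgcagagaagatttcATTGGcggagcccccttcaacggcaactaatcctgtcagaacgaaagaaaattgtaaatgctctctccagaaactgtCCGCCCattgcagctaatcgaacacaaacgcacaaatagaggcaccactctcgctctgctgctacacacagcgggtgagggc

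Adra1b had 2 annotated starts that differed in base composition and in accessibility. The inner start had 72.8% G and C and 22 CpG pairs and lay under a peak, while the outer start had 41.6% and 3, and its nearest peak was 11398 bp away. The Adrb1 sequence had 74.0% G and C and 24 CpG pairs, the Chrm2 sequence 50.0% and 12, and the median over all promoters of the table was 52.4% and 6. A GC box was found in 32.74% of the 32851 promoters of the table, a CCAAT box in 33.85% and the cAMP response element core in 17.77%. The inner Adra1b start held a GC box, the outer start 2 CCAAT boxes, Chrm2 a GC box and a CCAAT box, and Adrb1 all 3 kinds. Maoa, whose sequence is not shown, held a GC box and the cAMP response element core, and Grk5 held none of the motifs. These are letter matches and say nothing of binding. The TATA box, spelled TATAAA, is in 12.37% of the promoters and in none of these windows. The same held for the E-box, spelled CACGTG and found in 6.021%, and for the GATA motif AGATAA, found in 9.988%.

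Calls among the 98 peaks came to 8 higher and 2 lower in the mutant, and 88 did not pass the threshold. The higher ones lay at Adrb1 (4), Adra1b (2), Adrb3 (1) and Chrm2 (1), and the lower ones at Adra1a and Grk5. Maoa had none. Over all peaks, 3.05% were called higher and 2.45% lower. Among the 98 peaks these shares were 8.16% and 2.04%. Both mutant libraries lay above both wild-type libraries at 29 peaks and below them at 24, or 29.6% and 24.5%, against 25.8% and 25.7% of all peaks. The median log2 fold change was 0.05 over the 98 peaks and -0.00069 over all peaks. The count of calls moved with single libraries. There were 9 higher and 3 lower calls without mutant replicate 1, 13 and 3 without mutant replicate 2, 2 and 0 without wild-type replicate 1, and 1 and 2 without wild-type replicate 2. With the Y share as a covariate there were 4 and 2, with the replicate number as a block 15 and 3, and with DESeq2 2 and 2.

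**Figure D1:**
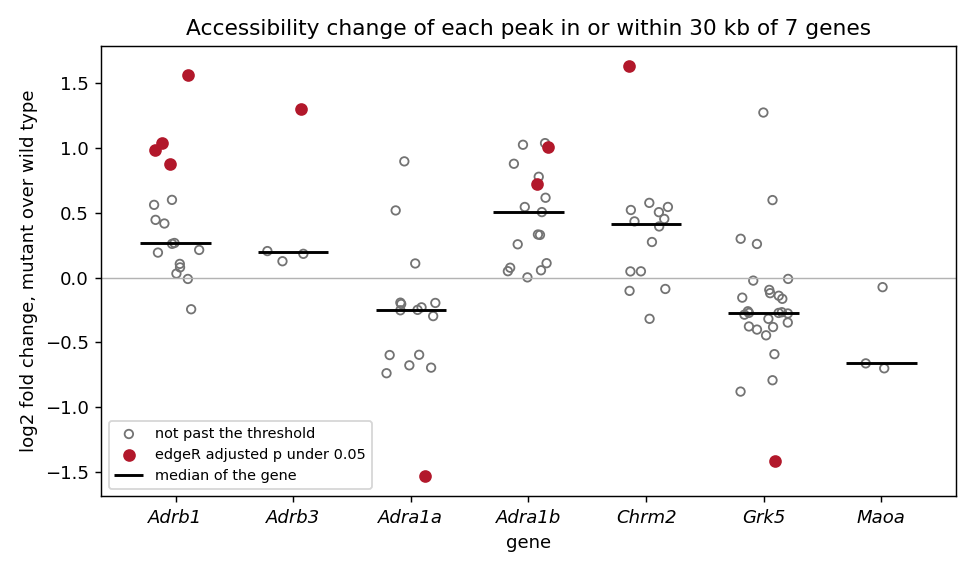
Log2 fold change (mutant over wild type, edgeR, n = 2 each) of each of the 98 peaks, by gene. Filled points passed an adjusted p of 0.05 and bars mark the median of a gene. The medians of Adrb1, Adrb3, Adra1b and Chrm2 lie above 0 and those of Adra1a, Grk5 and Maoa below it; with the Y share as a covariate that of Chrm2 is -0.0034.

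The start-site peaks themselves were not called. The peak over the Adrb1 start had 65.4 and 44.5 CPM in mutant replicates 1 and 2, against 53.9 and 48.3 CPM in wild-type replicates 1 and 2. That over the inner Adra1b start had 44.9 and 36.6 CPM in the mutant replicates, against 29.6 and 27.8 CPM in the wild-type replicates, and the groups did not overlap. That over the Chrm2 start had 35.7 and 20.6 CPM in the mutant replicates, against 24.4 and 17.3 CPM in the wild-type replicates. That over the Grk5 start was the strongest of the 98 peaks, at 78.7 and 67.5 CPM in the mutant replicates and 91.4 and 85.3 CPM in the wild-type replicates, again without overlap. That over the Maoa start had 25.7 and 27.0 CPM in the mutant replicates, against 27.3 and 28.2 CPM in the wild-type replicates. The 10 called peaks were all weaker than these start-site peaks, with mean levels between 1.85 and 16.9 CPM. Only 1 of the 10 lay within 1 kb of a gene end.

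Adrb1, the gene of the main beta-adrenergic receptor of cardiomyocytes, held 17 peaks in a window of 63.0 kb on chromosome 19. Of these, 4 were called higher in the mutant, by 1.84-fold to 2.96-fold. Among all peaks, 3.05% were called higher. The start-site peak (56721054 to 56724824, a span that covers most of the short gene) averaged 55.0 ± 14.7 CPM in the mutant and 51.1 ± 3.97 CPM in the wild type (SD, n = 2 each; edgeR log2 ratio 0.11, SE 0.16, adjusted p 0.764). Its sign turned to -0.20 without mutant replicate 1 and to -0.35 with the Y share as a covariate.

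A peak at the far end of Adrb1 (56725047 to 56725610), just past the strong peak, had 9.43 and 6.25 CPM in the mutant replicates, against 4.41 and 3.51 CPM in the wild-type replicates. Every mutant value lay above every wild-type value, and the log2 ratio was 0.99 (SE 0.29, adjusted p 0.0471, edgeR). Downstream, a peak 8915 bp from the gene (56734065 to 56734581) had 11.01 and 8.58 CPM in the mutant replicates, against 5.38 and 5.26 CPM in the wild-type replicates (edgeR log2 ratio 0.88, SE 0.25, adjusted p 0.0439). A weak peak 4843 bp from the gene (56729993 to 56730340) had 2.86 and 2.65 CPM in the mutant replicates, against 1.36 and 0.516 CPM in the wild-type replicates (edgeR log2 ratio 1.56, SE 0.45, adjusted p 0.044). The wild-type libraries differed more from each other here than the mutant ones did. Upstream, 18007 bp before the gene and within 1 kb of the gene Gm32575, a peak (56703452 to 56704110) had 10.5 and 8.08 CPM in the mutant replicates, against 4.30 and 4.75 CPM in the wild-type replicates (edgeR log2 ratio 1.04, SE 0.26, adjusted p 0.0245).

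These 4 peaks did not overlap between the groups, but each call rested on single libraries. That at the gene end was lost without mutant replicate 1 (adjusted p 0.255 in edgeR), wild-type replicate 1 (0.101) or wild-type replicate 2 (0.300), and so were that at 56734065 (0.162, 0.175 and 0.229) and that at 56703452 (0.0861, 0.147 and 0.115), in the same order. That at 56729993 was lost without wild-type replicate 2 (0.407), where its log2 fold change was 1.02, against 2.40 without wild-type replicate 1. With the Y share as a covariate all 4 calls were lost (edgeR adjusted p from 0.237 to 0.644), and with DESeq2 that at 56703452 was kept.

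The other 13 Adrb1 peaks, the start-site peak among them, had log2 fold changes between -0.24 and 0.60. The strongest of them outside the gene, 18859 bp away at the gene Gm32718, had 44.95 and 37.2 CPM in the mutant replicates, against 44.0 and 38.8 CPM in the wild-type replicates, with a log2 fold change of -0.01. Of the 17 log2 fold changes 15 were above 0, or 14 to 15 with other scalings and 11 to 15 with any 1 library left out. Only 9 of the 17 were above 0 with the Y share as a covariate, and the median was 0.017, against 0.27 without it. Over all 87948 peaks, 49.9% were above 0.

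**Figure D2:**
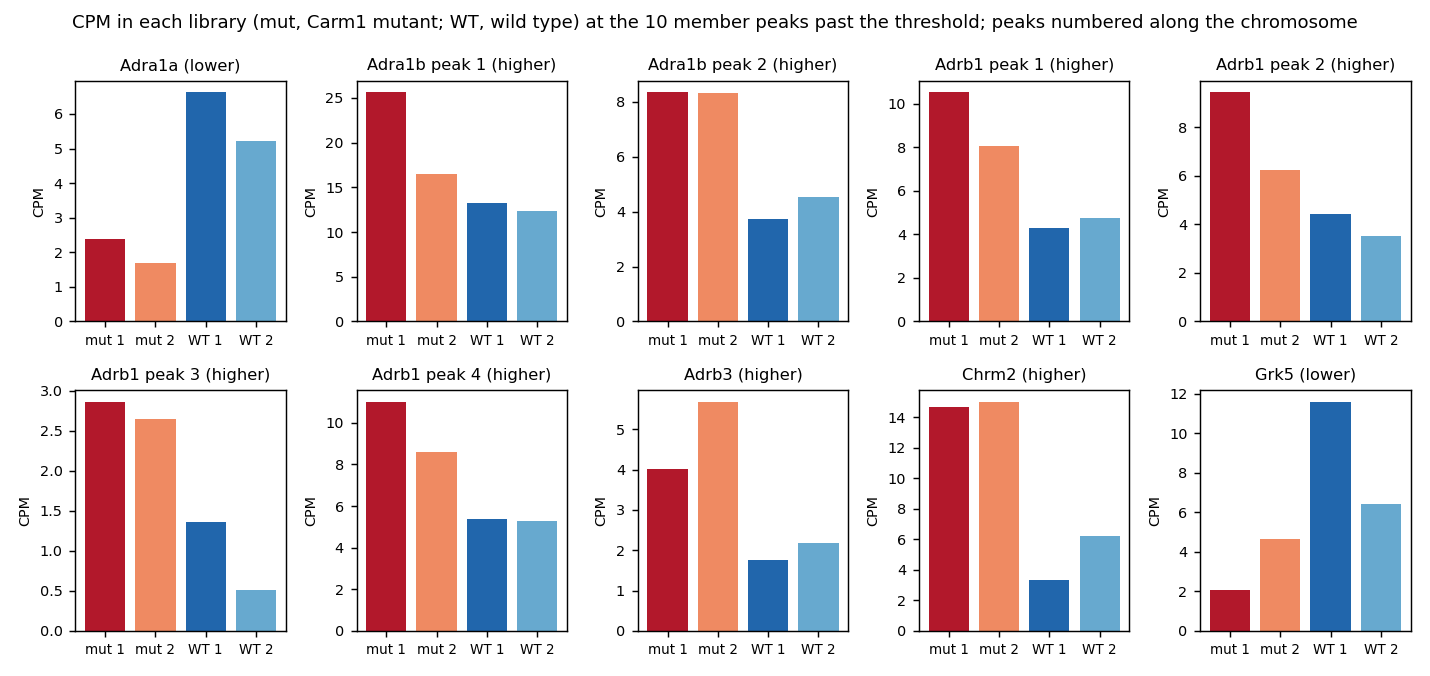
CPM in each library at the 10 peaks past the threshold, each in its own panel with its own axis from 0. In every panel both mutant bars lie on 1 side of both wild-type bars. At Grk5 the replicates of each genotype lie far apart, with 2.07 and 4.67 CPM in the mutant and 11.6 and 6.45 CPM in the wild type.

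Adrb3 encodes the beta-3 receptor, best known for driving fat breakdown in adipocytes. Its window on chromosome 8 held only 4 peaks. The single peak in the gene body (27227245 to 27227995) had 5.29 and 4.29 CPM in the mutant replicates, against 4.53 and 3.92 CPM in the wild-type replicates, with overlap between the groups. The called peak (27206545 to 27207128) lay 18648 bp from Adrb3 and within 1 kb of the neighbouring gene Got1l1. It had 4.01 and 5.68 CPM in the mutant replicates, against 1.75 and 2.17 CPM in the wild-type replicates (edgeR log2 ratio 1.30, SE 0.34, adjusted p 0.0302). That call was lost without mutant replicate 2 (0.0979), wild-type replicate 1 (0.175) or wild-type replicate 2 (0.107). The strongest peak, 28853 bp away at Eif4ebp1, a gene of translation control, had 75.1 and 62.8 CPM in the mutant replicates, against 63.8 and 55.9 CPM in the wild-type replicates. It makes up most of the Adrb3 sum and belongs by position to its neighbour. Adipocyte marker peaks, 7 at 4 of 6 listed genes with no peak at Adipoq or Ucp1, summed to 122 and 108 CPM in the mutant replicates and 113 and 100 CPM in the wild-type replicates, and 1 of the 7 was called higher. Their part in the Adrb3 values was not tested.

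The alpha-1 receptor genes had medians of opposite sign. Of all 87948 peaks, 3.05% were called higher and 2.45% lower, and 49.9% had a log2 fold change above 0. At Adra1b, on chromosome 11, 2 of 17 peaks were called higher and none lower, and the median log2 fold change was 0.51. All 17 log2 fold changes were above 0, the lowest at 0.0014, and with other scalings or with any 1 library left out 14 to 16 were. For Adra1b, 12 were above 0 with the Y share as a covariate, and the median was 0.26. At Adra1a, on chromosome 14, 1 of 16 peaks was called lower and none higher, and the median was -0.25, with 13 of 16 below 0 (12 to 13 with other scalings, 10 to 13 with any 1 library left out). The Adra1a median was -0.53 with the Y share as a covariate, and 5 of 16 were above 0. Both genes are expressed in cardiomyocytes. The difference between these medians was not tested.

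Of the Adra1b peaks, that with the smallest p (43848127 to 43848545, upstream of the inner start) had 8.33 and 8.33 CPM in the mutant replicates, against 3.73 and 4.54 CPM in the wild-type replicates (edgeR log2 ratio 1.01, SE 0.26, adjusted p 0.0301). The mutant replicates were alike, and both lay well above the wild-type replicates. The call was lost without wild-type replicate 1 (0.207) or wild-type replicate 2 (0.107), with the Y share as a covariate (0.0738) and with DESeq2 (0.064). A stronger peak (43790486 to 43791043) had 25.6 and 16.5 CPM in the mutant replicates, against 13.2 and 12.3 CPM in the wild-type replicates (edgeR log2 ratio 0.72, SE 0.21, adjusted p 0.0495). That call was at the edge of the threshold. It was lost without mutant replicate 1 (0.360), where the log2 fold change was 0.37, and without wild-type replicate 1 (0.166) or wild-type replicate 2 (0.277), and with the Y share as a covariate the log2 fold change was 0.23 (0.755).

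The peak over the inner Adra1b start, the sequence with 22 CpG pairs shown above, averaged 40.7 ± 5.86 CPM in the mutant and 28.7 ± 1.33 CPM in the wild type (SD, n = 2 each; edgeR log2 ratio 0.51, SE 0.16, adjusted p 0.062). It passed without mutant replicate 2 (0.00173) and with the replicate block (0.0183), and in no other fit. The log2 fold change was 0.35 without mutant replicate 1 (0.188) and 0.26 with the Y share as a covariate (0.583), and the adjusted p was 0.247 without wild-type replicate 1, 0.403 without wild-type replicate 2 and 0.121 with DESeq2. In the body of Adra1b, peaks at 43889275 and 43831413 had log2 fold changes of 1.03 and 1.04 and also fell just outside the threshold (edgeR adjusted p = 0.053 and 0.0608). At the gene's far end, 487 bp from the gene, a peak had 8.21 and 4.92 CPM in the mutant replicates, against 5.83 and 4.64 CPM in the wild-type replicates, and its sign turned without mutant replicate 1. Groups did not overlap at 9 of the 17 peaks, and in all 9 the mutant was above. Of all 87948 peaks, 25.8% had the mutant above and 25.7% had it below without overlap.

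The called Adra1a peak (66665342 to 66665926, 30091 bp inside the gene) had 2.37 and 1.70 CPM in the mutant replicates, against 6.62 and 5.21 CPM in the wild-type replicates. It fell to 0.346-fold of the wild-type level (edgeR log2 ratio -1.53, SE 0.33, adjusted p 0.0102). The call was kept in 12 of 13 alternative fits and lost without wild-type replicate 1 (0.0906), where the log2 fold change was -1.35. The strongest Adra1a peak (66732285 to 66732942) had 11.4 and 10.5 CPM in the mutant replicates, against 15.7 and 17.5 CPM in the wild-type replicates. The groups did not overlap, and the log2 ratio of -0.60 (SE 0.20, adjusted p 0.0868, edgeR) passed only with the replicate block (0.0408). At the lower-coordinate end of Adra1a, which the gene table gives without strand, a peak had 5.35 and 3.47 CPM in the mutant replicates, against 5.43 and 4.70 CPM in the wild-type replicates. The largest value in the other direction was at 66691437, with 2.43 and 3.41 CPM in the mutant replicates and 1.47 and 1.65 CPM in the wild-type replicates, a log2 fold change of 0.90 that did not pass (edgeR adjusted p = 0.171). Groups did not overlap at 9 of the 16 peaks, with the mutant below at 7 and above at 2. Over all peaks these shares were 25.7% below and 25.8% above.

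Chrm2, the gene of the M2 muscarinic receptor, held 14 peaks on chromosome 6, 12 of them in the gene body. The called peak had the smallest p of all 98. It lay 12562 bp past the gene (36541200 to 36541848), the last peak in the direction of transcription within the window. It had 14.7 and 15.0 CPM in the mutant replicates, against 3.34 and 6.19 CPM in the wild-type replicates, a 3.10-fold difference (edgeR log2 ratio 1.63, SE 0.27, adjusted p 0.00198). The mutant replicates were nearly equal and the wild-type replicates were not. It was the single call among the 10 that held in all 13 alternative fits, with adjusted p of at most 0.0249 and a log2 fold change between 1.26 and 2.15 with any 1 library left out.

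Within Chrm2 the strongest peak (36404907 to 36405898) had 49.0 and 45.4 CPM in the mutant replicates, against 43.9 and 47.5 CPM in the wild-type replicates. The groups overlapped, and the log2 ratio was 0.05 (SE 0.14, adjusted p 0.888, edgeR). The start-site peak (36387766 to 36390132) averaged 28.1 ± 10.7 CPM in the mutant and 20.9 ± 5.06 CPM in the wild type (SD, n = 2 each; edgeR log2 ratio 0.43, SE 0.22, adjusted p 0.258). Here 1 mutant library decided the value: without mutant replicate 2 the log2 fold change was 0.78 and passed (edgeR adjusted p = 0.000597), and without mutant replicate 1 it was -0.02. Peaks at 36451443 and 36507822 in the gene body had 31.1 and 23.6 CPM, and 39.1 and 28.0 CPM, in the mutant replicates, against 19.9 and 18.6 CPM, and 22.9 and 23.8 CPM, in the wild-type replicates. Neither passed (edgeR adjusted p = 0.102 and 0.0843), although the groups did not overlap at either. Of the 14 log2 fold changes 11 were above 0, against 7 to 12 with any 1 library left out. The share above 0 among all peaks was 49.9%. For Chrm2, 7 were above 0 with the Y share as a covariate, and the median turned to -0.0034, against 0.41 without it. Peaks at atrial marker genes, which could move with Chrm2, were few: 2 peaks at 2 of 6 genes, with none at Bmp10, Myl7 or Sln, summed to 6.51 and 9.15 CPM in the mutant replicates and 5.38 and 5.63 CPM in the wild-type replicates, and 1 of the 2 was called higher. Their part in the Chrm2 values was not tested.

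**Figure D3:**
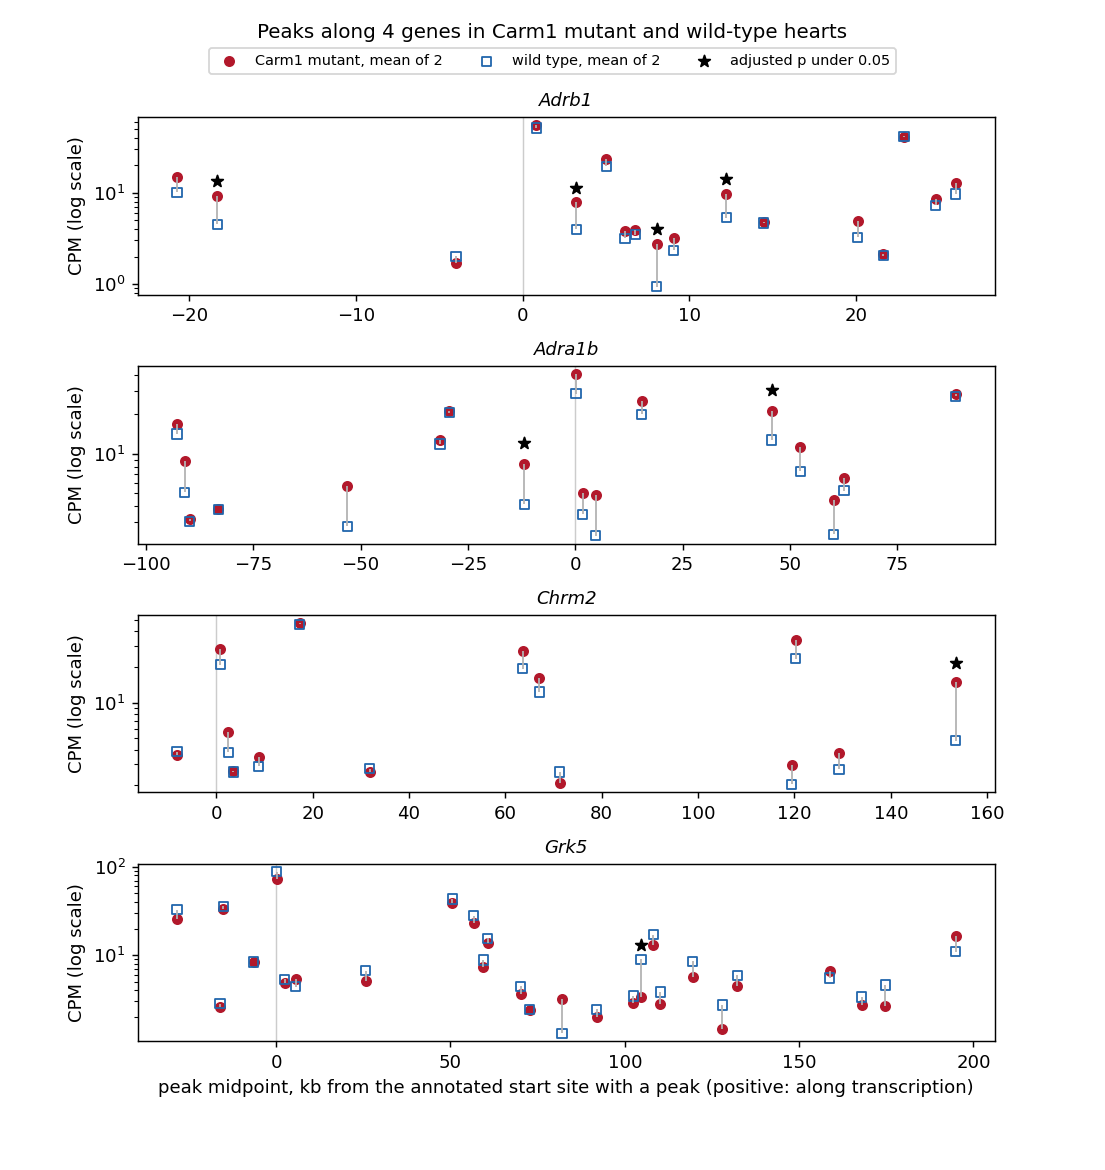
Mean CPM (log axis, n = 2 libraries per genotype) of each peak against the distance of its midpoint from the annotated start site that lies under a peak, for Adrb1, Adra1b, Chrm2 and Grk5. Stars mark the 8 called peaks of these genes, which lie away from the start sites. At Chrm2 the called peak is the last one, past the gene.

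Grk5 encodes a receptor kinase that desensitises adrenergic receptors and can also act in the nucleus. Its window on chromosome 19 was the widest, 266 kb, and held 27 peaks. The start-site peak (60888826 to 60890936) averaged 73.1 ± 7.92 CPM in the mutant and 88.4 ± 4.33 CPM in the wild type (SD, n = 2 each; edgeR log2 ratio -0.27, SE 0.13, adjusted p 0.234). It passed narrowly without mutant replicate 1 (0.0472), at -0.39. The called peak, 101308 bp from the nearer gene end (60994179 to 60994660), had 2.07 and 4.67 CPM in the mutant replicates, against 11.6 and 6.45 CPM in the wild-type replicates (edgeR log2 ratio -1.42, SE 0.34, adjusted p 0.0207). The groups did not overlap, but the gap between the wild-type replicates was wider than that between the nearest libraries of both genotypes. The call was lost without wild-type replicate 1 (0.248), where the log2 fold change was -0.94, and it was -2.12 at the other extreme of the fits with 1 library left out.

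The other 26 Grk5 peaks had log2 fold changes between -0.88 and 1.27. In all, 23 of the 27 were below 0 (22 to 23 with other scalings, 18 to 22 with any 1 library left out), and the median was -0.27. The share above 0 among all peaks was 49.9%. For Grk5, 10 were above 0 with the Y share as a covariate, and the median was -0.17. Groups did not overlap at 16 of the 27 peaks, with the mutant below at 13 and above at 3, against 25.7% and 25.8% of all peaks. Of the 3, a weak peak at 60971639 had 2.74 and 3.60 CPM in the mutant replicates, against 1.64 and 0.981 CPM in the wild-type replicates (edgeR log2 ratio 1.27, SE 0.40, adjusted p 0.0633). Another, at 61084079, near the far end and also inside or within 1 kb of Zfp950, had 14.5 and 18.7 CPM in the mutant replicates, against 11.8 and 10.1 CPM in the wild-type replicates (edgeR log2 ratio 0.60, SE 0.21, adjusted p 0.0979). In this window 6 peaks lay at other protein-coding genes, which are Sfxn4, Prdx3 and Zfp950.

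Maoa encodes monoamine oxidase A, which oxidises noradrenaline and serotonin. It lies on chromosome X, on which the sexes differ in copy number, and its window of 128 kb held only 3 peaks, none of them called. Its start-site peak (16618191 to 16620040) averaged 26.4 ± 0.90 CPM in the mutant and 27.8 ± 0.60 CPM in the wild type (SD, n = 2 each; edgeR log2 ratio -0.07, SE 0.16, adjusted p 0.839). It was -0.08 when scaled to the counts on chromosome X. A peak in the gene body (16656511 to 16656839) had 2.07 and 2.15 CPM in the mutant replicates, against 4.24 and 2.63 CPM in the wild-type replicates. The groups did not overlap, and the log2 ratio of -0.70 (SE 0.37, adjusted p 0.273, edgeR) was -0.71 when scaled to chromosome X and -0.32 without wild-type replicate 1. A weak peak 26415 bp past the gene, at its paralog Maob, had 0.73 and 1.70 CPM in the mutant replicates, against 1.24 and 2.58 CPM in the wild-type replicates, with overlap. With the Y share as a covariate the median of the 3 log2 fold changes was -0.0096, against -0.66 without it, and 1 of the 3 was above 0.

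Summed over its peaks, Adra1b had 241 and 217 CPM in the mutant replicates, against 177 and 174 CPM in the wild-type replicates, a ratio of 1.30. Chrm2 had 220.5 and 167 CPM in the mutant replicates, against 152 and 147 CPM in the wild-type replicates, also a ratio of 1.30. Adrb1 had 234 and 186 CPM in the mutant replicates, against 184 and 165 CPM in the wild-type replicates, a ratio of 1.20, and its lower mutant library was close to the higher wild-type one. Grk5 had 304 and 328 CPM in the mutant replicates, against 379 and 354 CPM in the wild-type replicates, a ratio of 0.863. Adra1a had 69.5 and 68.1 CPM in the mutant replicates, against 90.8 and 83.6 CPM in the wild-type replicates, a ratio of 0.789. Adrb3 had 87.6 and 76.7 CPM in the mutant replicates, against 73.3 and 65.2 CPM in the wild-type replicates. Maoa had 28.5 and 30.9 CPM in the mutant replicates, against 32.8 and 33.4 CPM in the wild-type replicates. The groups did not overlap in any of the 7 sums. The 7 genes were selected on CPM values of these libraries, and the share of all genes whose sums do not overlap was not taken. Of single peaks in the whole series, 25.8% had the mutant above and 25.7% had it below without overlap. With 2 libraries per genotype no test was run on the sums, since the smallest two-sided p of an exact permutation test is 0.333. In bulk tissue, fewer cells of a type and less open chromatin per cell cannot be told apart. The peaks at endothelial marker genes, 8 peaks at 6 of 7 genes with none at Erg, summed to 132 and 122 CPM in the mutant replicates and 185 and 136 CPM in the wild-type replicates, with 1 of them called lower, and none of the 16 at cardiomyocyte markers was called. Their part in the 7 sums was not tested.

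**Figure D4:**
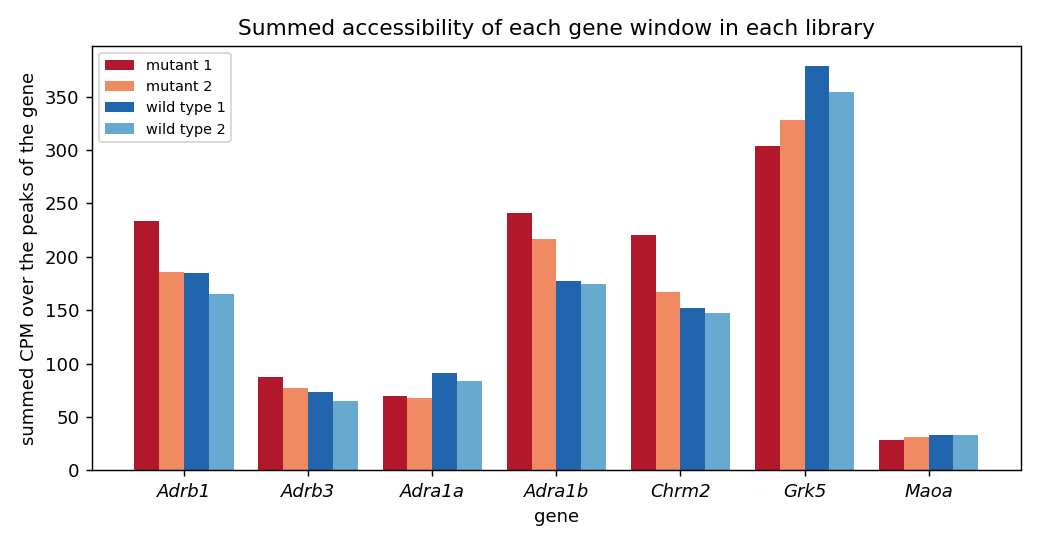
Summed CPM over all peaks of each gene window, for each of the 4 libraries. Both mutant bars are above both wild-type bars at Adrb1, Adrb3, Adra1b and Chrm2, narrowly so at Adrb1, and below them at Adra1a, Grk5 and Maoa.

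Per kb of window, Adrb1 stood highest, at 3.33 ± 0.54 CPM per kb in the mutant and 2.77 ± 0.22 CPM per kb in the wild type (SD, n = 2 each), and it also had the densest peaks, 27.0 per 100 kb. In the mutant Adrb3, Adra1b and Grk5 followed at 1.26 ± 0.12, 1.23 ± 0.091 and 1.19 ± 0.064 CPM per kb, which did not differ beyond their spread. Chrm2 had 0.967 ± 0.19 and Adra1a 0.351 ± 0.0048 CPM per kb in the mutant. In the wild type the order was Grk5 at 1.38 ± 0.065, Adrb3 at 1.06 ± 0.088, Adra1b at 0.941 ± 0.0098, Chrm2 at 0.745 ± 0.016 and Adra1a at 0.445 ± 0.026 CPM per kb. Maoa was lowest in both genotypes, at 0.232 ± 0.013 in the mutant and 0.258 ± 0.0032 CPM per kb in the wild type. The flanks hold neighbouring genes, so these levels are of windows and not of genes alone. Nearest to the border of 30 kb, the peak 28853 bp from Adrb3 was inside and a peak 31108 bp from Adrb1 was outside. The peak outside had 8.88 and 10.1 CPM in the mutant replicates, against 5.94 and 6.55 CPM in the wild-type replicates. Past the Adrb3 window, the first peak on either side was called higher in the mutant. They lay 50927 bp (edgeR log2 ratio 0.99, adjusted p 0.0479) and 32815 bp (edgeR log2 ratio 0.69, adjusted p 0.032) from Adrb3. None of the first peaks past the other windows was called.

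The gene whose summed profile over the 4 libraries was most like that of Chrm2 was Erbb4, a neuregulin receptor gene, with a root-mean-square difference of 0.0099 in centred log2 CPM among 14132 genes compared. For Adra1b it was Cav3, the muscle caveolin gene (0.0096), for Adra1a Btbd3 (0.0078), and for Grk5 Prcp (0.0087). For Adrb1 it was H3f3a, a histone gene (0.017), for Adrb3 Dbh (0.0035) and for Maoa Moxd1 (0.0033). With only 4 libraries, many genes lay within a wider limit of 0.05, with 37 genes for Chrm2 and 560 for Maoa.

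Around these 7 genes, 86 other genes of autonomic signalling were followed in the same windows, of which 83 had a peak. Of their 1425 peaks, 33 rose in 22 genes, 33 fell in 21 genes and 1359 did not pass the threshold, 2.32% each way against 3.05% and 2.45% of all peaks. The median log2 fold change was -0.02. The counts moved with single libraries: 45 rose and 53 fell without mutant replicate 1, 72 and 68 without mutant replicate 2, 8 and 12 without wild-type replicate 1, and 6 and 4 without wild-type replicate 2. With DESeq2 12 rose and 14 fell, and with the replicate block 76 and 76.

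Among the other receptors, 3 of 67 peaks rose (4.48%) and 2 fell (2.99%), against 3.05% and 2.45% of all peaks. A peak in the body of Adra1d, the third alpha-1 receptor gene, had 5.29 and 9.15 CPM in the mutant replicates, against 1.30 and 1.86 CPM in the wild-type replicates (edgeR log2 ratio 2.18, SE 0.35, adjusted p 0.00169). Adra1d had 2 of its 11 peaks higher and 1 lower. Among receptor kinases, arrestins and RGS proteins, 6 of 167 peaks rose (3.59%, near the share of all peaks) and none fell. The 6 were at Grk3 and Rgs3 (2 each), Grk6 and Arrb1. A peak 29213 bp from Rgs3, whose product speeds the shut-off of G proteins, had 39.8 and 43.0 CPM in the mutant replicates, against 19.7 and 21.5 CPM in the wild-type replicates (edgeR log2 ratio 1.01, SE 0.16, adjusted p 0.00153).

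Genes of catecholamine synthesis, transport and breakdown had 11 of 128 peaks higher (8.59%) and 1 lower (0.781%), which was at Rnls. Over all peaks the shares were 3.05% and 2.45%. A peak 29516 bp from Th, the gene of tyrosine hydroxylase, had 9.61 and 8.77 CPM in the mutant replicates, against 1.98 and 2.53 CPM in the wild-type replicates (edgeR log2 ratio 2.02, SE 0.29, adjusted p 0.000683). Th itself had no peak within 1 kb of its ends, nor had the sympathetic neuron gene Slc6a2. A peak 26079 bp from Dbh, which makes noradrenaline, lay at Sardh and had 37.8 and 28.6 CPM in the mutant replicates, against 20.7 and 18.2 CPM in the wild-type replicates. That call (edgeR log2 ratio 0.77, SE 0.18, adjusted p 0.0149) was lost without wild-type replicate 1 (0.0637) or wild-type replicate 2 (0.189), and with the Y share as a covariate (0.360), where the log2 ratio was 0.42.

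Genes of protein kinase A, its anchors and the phosphodiesterases that break down cyclic AMP had 15 of 402 peaks lower and 4 higher. These were 3.73% and 0.995% of the list, against 2.45% and 3.05% of all peaks. Of the 15, 4 each lay at Pde4b and Pde4d. A peak in Pde4d had 0.973 and 1.70 CPM in the mutant replicates, against 4.64 and 5.32 CPM in the wild-type replicates (edgeR log2 ratio -1.89, SE 0.37, adjusted p 0.00601). That call was lost with the Y share as a covariate, at a log2 ratio of -1.38 (adjusted p 0.113 in edgeR). A peak in Pde4b had 2.13 and 2.40 CPM in the mutant replicates, against 7.64 and 5.63 CPM in the wild-type replicates, and its call was lost without wild-type replicate 1 (adjusted p 0.0882 in edgeR). Of the G protein, adenylyl cyclase and phospholipase C peaks, 2 of 320 rose (0.625%) and 6 fell (1.875%). Of those of acetylcholine synthesis, transport and breakdown, 1 of 35 rose (2.86%) and 2 fell (5.71%).

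Effector genes of the pathway had 6 of 306 peaks higher (1.96%) and 7 lower (2.29%), against 3.05% and 2.45% of all peaks. Popdc2, which encodes a cyclic AMP binding protein of the heart, had 4 of the higher ones. The Popdc2 peak with the smallest p had 6.75 and 6.63 CPM in the mutant replicates, against 1.87 and 2.58 CPM in the wild-type replicates, and its call was lost without wild-type replicate 1 (adjusted p 0.0582 in edgeR). In Kcnj5, which encodes a subunit of the potassium channel opened by the M2 receptor, a weak peak had 0.365 and 0.315 CPM in the mutant replicates, against 2.26 and 2.53 CPM in the wild-type replicates (edgeR log2 ratio -2.79, SE 0.50, adjusted p 0.0035). A peak 25027 bp from Ryr2, the calcium release channel gene, had 17.6 and 28.1 CPM in the mutant replicates, against 41.1 and 51.7 CPM in the wild-type replicates. A peak 4125 bp from Cacna1c, at Dcp1b, had 6.75 and 6.69 CPM in the mutant replicates, against 11.1 and 18.1 CPM in the wild-type replicates. Without wild-type replicate 2 both calls were lost (edgeR adjusted p = 0.0799 for Ryr2 and 0.302 for Cacna1c). Both were also lost with the Y share as a covariate, where the log2 fold change was -0.47 at Ryr2, against -1.02 without it, and -0.75 at Cacna1c, against -1.12 (edgeR adjusted p = 0.225 and 0.235).

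**Figure D5:**
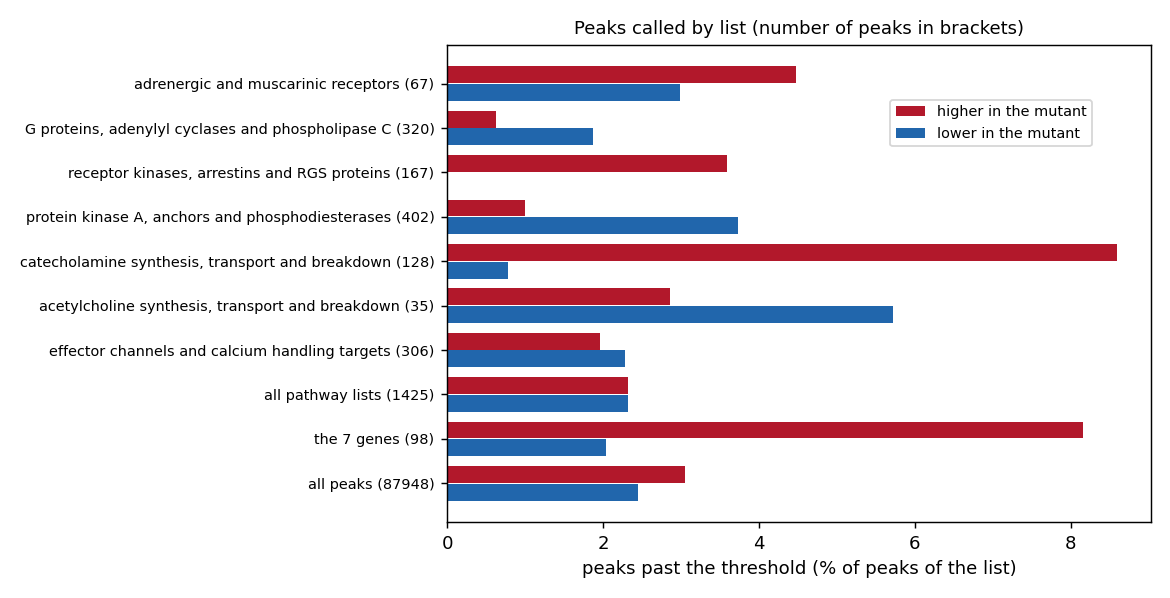
Share of the peaks of each list (%) that passed an adjusted p of 0.05 in edgeR, higher or lower in the mutant, with the number of peaks of the list in brackets. The lists of the 7 genes (8.16% higher, 2.04% lower) and of catecholamine genes (8.59% higher, 0.781% lower) are set beside all peaks (3.05% and 2.45%).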

How the data were processed

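Open chromatin was measured by ATAC-seq in 2 Carm1 mutant and 2 wild-type samples of mouse heart, whose titles gave genotype and replicate number. The deposited table held raw counts per peak that had not been normalized, as the file headers and whole-number values show. Per the submitters' processing notes, FastQC and Bowtie2 and build mm10 were used. How peaks were called, and whether reads were filtered, deduplicated or shifted for the transposase, is not given in the sources used here. Any of these steps may alter counts. Nothing in the labels says that replicates were separate animals, so p-values measure only the spread between these samples.

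Gene positions came from RefSeq (GRCm38.p6, the assembly of mm10); all 147 symbols looked up were matched. Peak coordinates are as deposited. The table has no exons, so peaks are placed only in the gene body or a flank. On all peaks, CPM and TMM factors were computed, filterByExpr removed 0 peaks, and genotype was the only term of the quasi-likelihood test of edgeR 4.0.16 (R 4.3.3), which was first tested on simulated data. Log2 ratios and fold changes put the mutant over the wild type; their SE was taken from the F statistic. limma 3.58.1 and DESeq2 1.42.0 were alternatives. Tables and promoter matches were made with Python 3.11.15.

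The members, the gene lists and the rule for named peaks were chosen with earlier results of these data known. Named peaks were, per gene, every called peak, the strongest peak, the strongest within 1 kb of a gene end and that with the smallest p, and, of the other pathway genes, the 5 higher and 5 lower calls with the smallest p, at most 1 per gene; any further peak was chosen after its values were seen. Marker lists covered 10 cell types, by peaks within 1 kb of a gene end. Those not given with a result summed, in mutant replicates 1 and 2 and then wild-type replicates 1 and 2, to 83.5, 98.6, 81.7 and 89.7 CPM for fibroblast, 111, 98.7, 104 and 99.8 for mural, 82.4, 86.7, 84.5 and 75.6 for leukocyte, 59.2, 52.6, 54.7 and 54.1 for skeletal muscle, 167, 137, 119 and 120 for sympathetic neuron, and 39.8, 44.1, 32.9 and 37.6 for Schwann markers. The sequence under the called peaks was not used here. Single values of some genes of the pathway and marker lists are not reported here.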

Additional observations from a re-analysis of the deposited data

How the results depend on the processing

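The direction of the 20 called peaks among the named ones held in each alternative fit; the other calls were not followed one by one. Of 404 alternative values of 32 named peaks, 336 kept their direction and their side of the threshold, 53 lost a call, 5 gained one and 10 turned sign, all 10 at peaks that were not called. With 1 library left out, the log2 fold change ran from -0.54 to 0.081 at Adra1a 66635151, from -0.087 to 0.65 at Adra1b 43773645, from -0.20 to 0.36 at Adrb1 56721054, from -0.018 to 0.78 at Chrm2 36387766 and from -0.0077 to 0.11 at Chrm2 36404907 (-0.0053 without wild-type replicate 1). With the Y share as a covariate it became -0.33 at Adra1b 43773645, -0.35 at Adrb1 56721054, -0.048 at Adrb3 27259698 and -0.33 at Chrm2 36387766. A fit with 1 library left out assumes that the lone library varies like the other genotype's pair.

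Over all peaks, DESeq2 called 1365 higher and 1008 lower, the replicate block 5230 and 4494, a threshold of 0.1 4824 and 4127, and the Y covariate 1036 lower; with 1 library left out the counts were 642 to 4307 higher and 364 to 4132 lower. The 8 higher member calls became 5 with total counts, 4 with a mean CPM of at least 2, 2 with DESeq2, 4 with limma voom, 15 with the replicate block, 4 with the Y covariate, 14 at a threshold of 0.1, 3 in gene bodies and 5 within 10 kb, and 1 to 13 with 1 library left out; the 2 lower calls became 0 to 3. For the pathway lists, DESeq2 gave 12 higher and 14 lower, the replicate block 76 and 76, and the Y covariate 20 lower, and leaving out 1 library gave 6 to 72 higher and 4 to 68 lower. The median log2 fold change of the member peaks was -0.035 with the Y covariate, -0.088 in gene bodies, and -0.013 to 0.14 with 1 library left out; that of the pathway peaks was -0.054 with total counts and -0.045 to 0.019 with 1 library left out. The causes were not tested. RLE scaling, cyclic loess offsets and no filter left these counts within 1.5 times. Same-numbered libraries of both genotypes deviated from their group means with a correlation of 0.108; the labels do not pair them, so the replicate block rests on a shared number only.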
